A study of Mus musculus with 15 samples.

Results

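The expression of 40 genes of the cell division cycle was followed across striatum libraries of mouse pups. They were taken as a list of gene symbols for replication, mitosis and the kinetochore, and all 40 were found among the 15569 genes of the deposited table. By role they comprise 8 cyclins and kinases of G1, 10 genes of DNA replication and nucleotide supply, 9 cyclins, kinases and checkpoint kinases that act between S phase and mitosis, 7 chromosome and kinetochore genes, and 6 genes of the spindle, cytokinesis and mitotic exit. The last 3 roles together hold 22 genes and are called mitotic members below. The list was given as symbols, with no measured value in its rule, but it was chosen with earlier results of these data known.

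The study asked what prenatal inhalation by the dam does to the transcriptome of the developing brain. All pups were C57Bl/6J, the tissue was striatum at postnatal day 14, and the measurement was RNA sequencing of total RNA. There were 3 libraries after exposure of the pregnant dams to an aerosol of paraquat, a redox-cycling herbicide, 4 after titanium dioxide (TiO2) nanoparticles, 4 after the mixture of both, and 4 controls, which the labels call untreated. The labels give no dose, litter, dam, sex or batch, and do not say that each library of a group came from a separate animal. Every group held libraries with and without reads of Y-linked genes, so that no group was 1 animal throughout, but the spread that the p-values rest on is that between libraries, and part of it may be technical.

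Cells divide when cyclin D with Cdk4 or Cdk6, and cyclin E with Cdk2, inactivate the retinoblastoma family and free E2F factors to switch on replication genes. The mitotic genes are switched on later, through promoters with CCAAT boxes, bound by the factor NF-Y, and a short element called the cell cycle homology region (CHR), through which the DREAM and MuvB complexes act. In the second postnatal week most striatal neurons no longer divide, while oligodendrocyte precursors, progenitors of the nearby subventricular zone, and some astrocytes, microglia and vessel cells still do. In a bulk sample, fewer dividing cells and less RNA per dividing cell cannot be told apart.

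Promoter windows are shown for 5 members whose values are described below, because the members share short elements in these windows that the choice of the list did not use. Each window runs from 250 bases before to 50 bases after a RefSeq start site (GRCm38.p6), 5′ to 3′ on the gene's strand, with every match to a searched motif in capitals. The motifs, read on both strands, were CCAAT (reverse ATTGG), the CHR letters TTTGAA (reverse TTCAAA) and an E2F core GCGGGAA (reverse TTCCCGC).
Cenpu, chr8:46551819-46552118, + strand: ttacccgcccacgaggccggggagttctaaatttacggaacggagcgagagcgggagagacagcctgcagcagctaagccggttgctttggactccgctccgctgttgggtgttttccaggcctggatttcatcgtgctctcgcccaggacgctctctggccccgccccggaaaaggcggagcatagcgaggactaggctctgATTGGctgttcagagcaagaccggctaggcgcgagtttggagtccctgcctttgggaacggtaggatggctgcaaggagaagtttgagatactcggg
Kif11, chr19:37376132-37376431, + strand: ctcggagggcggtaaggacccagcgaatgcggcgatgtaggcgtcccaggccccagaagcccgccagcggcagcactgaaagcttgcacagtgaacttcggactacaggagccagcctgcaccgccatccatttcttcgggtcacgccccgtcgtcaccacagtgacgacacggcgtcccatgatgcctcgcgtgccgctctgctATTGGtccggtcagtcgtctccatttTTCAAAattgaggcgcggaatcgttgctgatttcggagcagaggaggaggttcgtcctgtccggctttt
Ube2c, chr2:164769679-164769978, + strand: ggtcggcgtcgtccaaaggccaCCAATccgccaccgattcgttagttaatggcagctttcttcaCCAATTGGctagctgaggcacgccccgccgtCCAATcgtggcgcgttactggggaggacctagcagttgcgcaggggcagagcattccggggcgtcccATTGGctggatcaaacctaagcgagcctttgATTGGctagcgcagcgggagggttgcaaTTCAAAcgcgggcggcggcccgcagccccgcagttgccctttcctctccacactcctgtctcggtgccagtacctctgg
Cdk2, chr10:128705002-128705301, - strand: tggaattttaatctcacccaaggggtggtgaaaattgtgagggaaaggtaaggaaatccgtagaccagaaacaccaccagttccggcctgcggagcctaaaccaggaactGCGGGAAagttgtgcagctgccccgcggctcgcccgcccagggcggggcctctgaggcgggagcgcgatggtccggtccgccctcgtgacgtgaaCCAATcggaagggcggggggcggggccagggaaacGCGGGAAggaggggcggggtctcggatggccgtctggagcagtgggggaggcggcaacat
Cdk4, chr10:127063285-127063584, + strand: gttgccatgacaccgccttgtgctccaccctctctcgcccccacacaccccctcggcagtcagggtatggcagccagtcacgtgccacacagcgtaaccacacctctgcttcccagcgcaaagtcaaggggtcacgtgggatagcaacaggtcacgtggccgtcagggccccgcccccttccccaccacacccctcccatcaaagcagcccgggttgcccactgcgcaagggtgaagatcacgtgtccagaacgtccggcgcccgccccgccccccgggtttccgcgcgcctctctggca

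Of the 40 members 32 had a promoter in the RefSeq table. A CCAAT match lay in the windows of 25 of these 32 (78.1%), against 38.3% of the 10925 tested genes with a promoter. The CHR letters lay in 12 of 18 mitotic members (66.7%) and in 1 of 14 G1 and replication members (7.14%), against 11.3% of all promoters. All 12 of those mitotic windows held a CCAAT match as well, and 4.7% of all promoters held both. The E2F core lay in 4 of 14 G1 and replication members (28.6%) and in 0 of 18 mitotic members, against 8.26% of all promoters. In the windows printed, Kif11 had a CCAAT match 45 and a CHR match 19 bases before the start, and Ube2c had 6 CCAAT matches, 2 of them overlapping as CCAATTGG, and a CHR match 29 bases before the start. Cenpu had 1 CCAAT match 47 bases before the start and no CHR letters, Cdk2 had E2F cores 140 and 10 bases before the start, with a CCAAT match 45 bases before it, and Cdk4 had none of the 3 motifs. These matches are letters in a window and were not measured as binding.

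The members were low in the 14-day striatum. Over the 15 libraries their mean normalised read counts ran between 11.9 and 1070 with a median of 53, against a median of 161 over all genes tested, and 11 members had means under 30. Per kilobase of exon in the control libraries, Cdk4, the G1 kinase, stood highest at 183 ± 10.6 normalised reads (SD, n = 4), followed by Ccnd2, cyclin D2, at 121 ± 10.9. Ccnd1, cyclin D1, had 50.9 ± 5.4 per kilobase and Mki67, the proliferation antigen Ki-67 that coats mitotic chromosomes, 43.5 ± 9.65, which do not differ beyond their spread. Rrm2, a ribonucleotide reductase subunit, had 33.9 per kilobase and Ccna2, cyclin A2, 33.3. At the low end Cenpf, a kinetochore protein of mitosis, had 2.65, Tyms, thymidylate synthase, 3.08, and Cenpu, a subunit of the inner kinetochore, 4.37 per kilobase. The 3 highest per kilobase were G1 genes, some of which neurons also express after they stop dividing, and the mitotic members other than Mki67 and Ccna2 lay at 30.7 per kilobase or below.

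Depth, recovered from the values, ran between 8690925 and 14207513 reads per library, and 1 read was worth 0.6585 to 1.085 normalised counts. All 40 members passed the filter on low counts, which kept 15556 genes. A floor of 3 reads corresponds to 1.98 to 3.25 normalised counts, and no member fell to it in any library, the lowest being 4 reads of Cenpu. At that level counting error alone is large. The labels name no molecular identifiers, so these figures speak of counting error and not of molecules. Of the 40 members 12 varied within groups about as much as counting predicts, their chi-square per degree of freedom being under 1.5, while 11 exceeded 3. The largest were 23.6 for Ccnd2 and 20.9 for Mki67. For members with means of 30 to 100 the median was 2.55, against 1.54 over all genes at that level.

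Single libraries stood apart for many members at a time, as the map of all 40 genes shows. Control 2 was the lowest control library for 31 of the 40 members, and for 19 of the 22 mitotic ones, whereas it was the lowest control for 4775 of all 15556 genes (30.7%). The median deviation of its members from the control mean was -0.42 on the log2 scale. Mixture 4 was the highest mixture library for 26 of 40 members and 17 of 22 mitotic members, against 26.3% of all genes, with a median deviation of 0.24 over the 40. The 22 mitotic members summed to 1580, 1460 and 1210 normalised counts in the paraquat libraries, to 1260, 1350, 1200 and 1180 in TiO2, to 1480, 1280, 1210 and 1940 in the mixture, and to 1650, 1010, 1690 and 1620 in control. Control 2 therefore held the lowest sum and mixture 4 the highest, with the 4 TiO2 libraries all below the other 3 controls and above control 2.

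**Figure D1:**
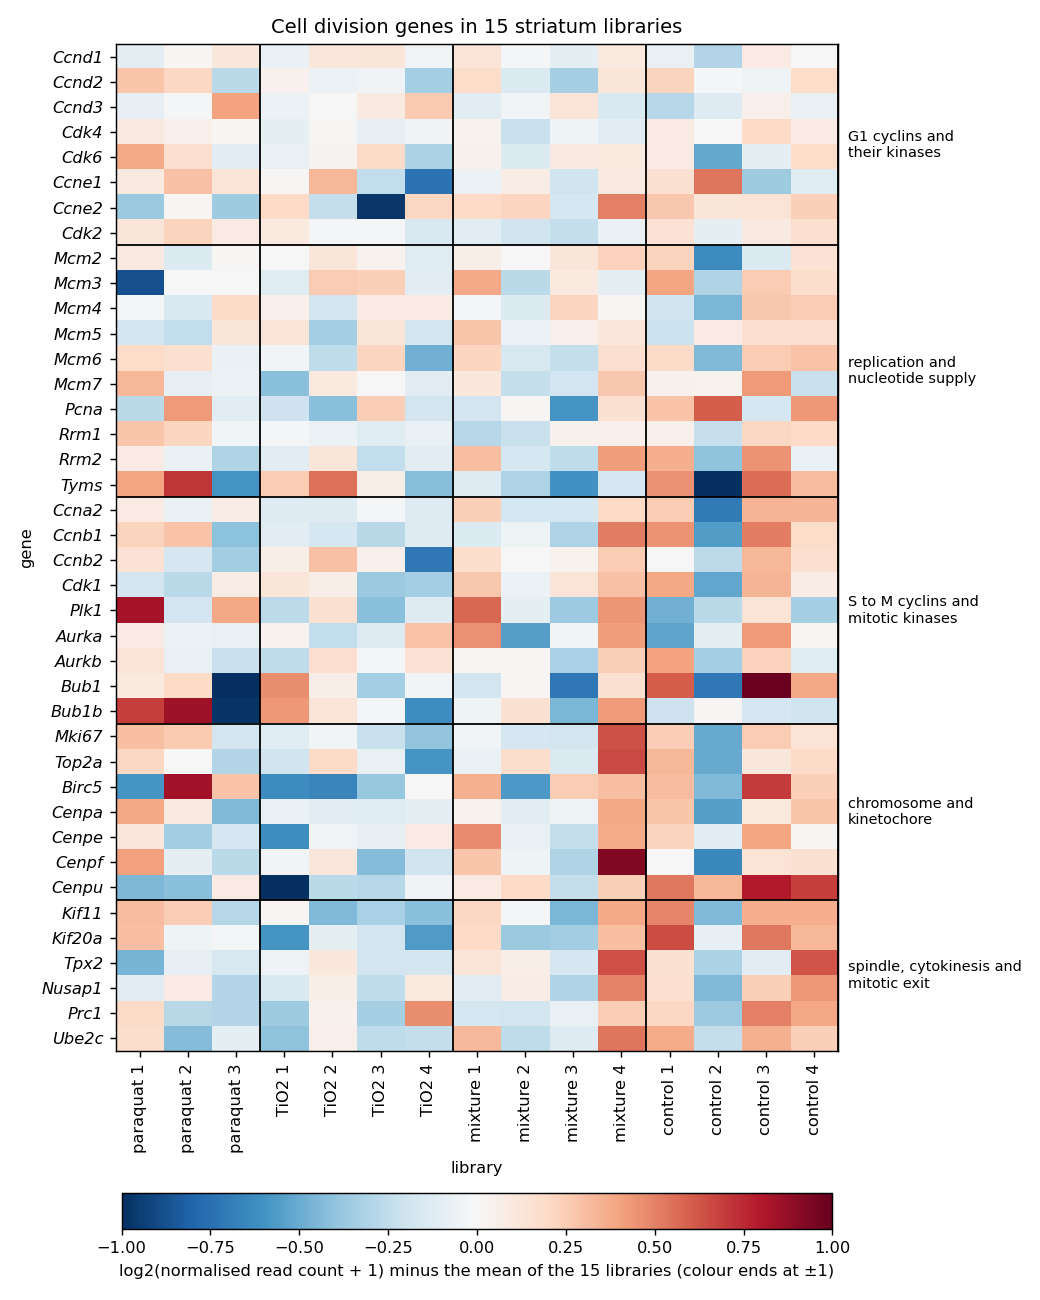
Each row is a gene, grouped by role, and each column a library; colour is log2(normalised read count + 1) minus the gene's mean over the 15 libraries, with the colour scale ending at 1 in both directions. Control 2 is blue in most rows below the G1 genes and mixture 4 red in most rows of the 3 mitotic roles, and Cenpu is reddest in 3 of the 4 control libraries.

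The libraries that stood apart for mitotic members did so for markers of subventricular progenitors and immature neurons too. The 10 such markers, among them Dcx, Dlx1, Dlx2, Egfr and Nes, summed to 3990, 3930 and 2980 in paraquat, to 3270, 3180, 3470 and 3180 in TiO2, to 3670, 3080, 2920 and 4630 in the mixture and to 3620, 1880, 3680 and 3480 in control. Control 2 was again the lowest and mixture 4 the highest of the 15, and none of the 10 markers was at 0 in any library. After paraquat Dlx5 was called higher and Nes lower (limma; named after their values were seen). Both calls were lost without any of 6 libraries or more, with adjusted p up to 0.145, and 0 of the 10 were called after TiO2 or the mixture. Control 2 and mixture 4 stood apart for other marker lists as well. Control 2 was the highest control for 8 of 10 microglial and 8 of 10 endothelial markers and the lowest for 0 of either. It was the highest control for 31.5% of all genes. Mixture 4 was the lowest mixture library for 10 of 10 myelinating oligodendrocyte and 8 of 10 medium spiny neuron markers, and the highest for 0 of either. This was not particular to those 2 lists, as it was also lowest for 6 of 10 endothelial and 3 of 3 choroid plexus markers. It was lowest for 0 of 10 progenitor and 1 of 8 cortical glutamatergic neuron markers. The part of any of these cells in the mitotic values was not tested.

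**Figure D2:**
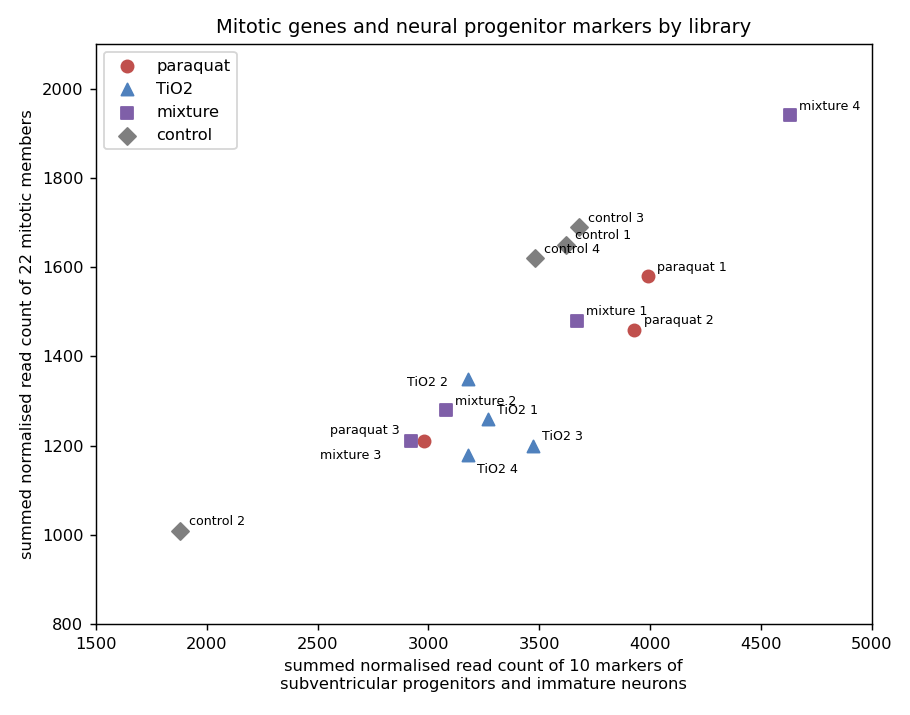
Each point is a library; the x axis is the summed normalised read count of 10 markers of subventricular progenitors and immature neurons and the y axis that of the 22 mitotic members. Control 2 lies at the lower left (1880 and 1010) and mixture 4 at the upper right (4630 and 1940), with the other libraries between them.

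Oligodendrocyte precursor markers were summed in the same way. Their 12 genes summed to 15900 to 19100 in paraquat, 16900 to 18600 in TiO2, 14400 to 15600 in the mixture and 13100 to 14900 in control. After paraquat 4 of 12 were called higher (Sox10, Olig1, Gpr17 and Olig2), against 6.34% of all genes. After TiO2 4 of 12 were called higher (C1ql1, Ptprz1, Sox10 and Vcan), against 4.3% of all genes. These markers were named after their values were seen. The calls of Gpr17 and Olig2 after paraquat and of Sox10 and Vcan after TiO2 were lost without any of 3 to 5 libraries, with adjusted p up to 0.159. The paraquat and TiO2 ranges of these marker sums lay above the control range. The part of oligodendrocyte precursors in the mitotic values was not tested. The marker list for medium spiny neurons, the principal cells of the striatum, summed to 70900 to 91800 over the 15 libraries, with no marker at 0. The labels give no sex. Y-linked genes were detected in control 2 and 4, paraquat 1 and 3, TiO2 3 and 4, and mixture 1 and 3, and the library with the lowest Mki67 in each group was among these, as was paraquat 1, the highest of its group for Mki67. In the mixture group mixture 1, with Y-linked reads, lay above mixture 2, without them (409 and 371). The part of sex in the members' values was not tested.

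The first comparison asks whether paraquat changed the cell division genes. None of the 40 members was called by limma (adjusted p under 0.05 over all genes tested), while 10.4% of all genes were called (6.34% higher and 4.06% lower), and 1 member, Cenpu, had an unadjusted p under 0.05, against 26.6% of all genes. The edgeR and voom tests called 0 members as well, and DESeq2 called 0 of the 37 to which it gave an adjusted p. Of the 40 members 25 had lower means than control, with a median log2 fold change of -0.03, beside -0.01 over all genes. The spindle, cytokinesis and exit genes had lower means in 6 of 6, with a median of -0.29, and the G1 genes in 3 of 8, with a median of 0.08.

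Next to Cenpu the smallest p-values after paraquat belonged to Plk1 and Ccne2. Plk1, the polo kinase that drives mitotic entry and spindle assembly, had 29.8, 14.2 and 21.7 normalised counts in paraquat libraries, 13.5, 18.3, 12 and 14.9 in TiO2 and 24.8, 15.2, 12.5 and 22.6 in the mixture, against 11.4, 13.4, 18.1 and 12.8 in control. Paraquat 1 and 3 lay above all controls and paraquat 2 among them. The log2 fold change was 0.58 ± 0.29 (standard error; adjusted p = 0.205 by limma, higher in 2 of 3 libraries than any control). Ccne2, cyclin E2, which starts S phase with Cdk2, had 41.7, 54.8 and 42.1 in paraquat libraries, 62.3, 45.8, 27.1 and 62.7 in TiO2 and 62.4, 62.9, 47.9 and 77.1 in the mixture, against 65.3, 58.8, 59.6 and 63.9 in control. Paraquat and control did not overlap, yet the difference of -0.42 ± 0.22 did not pass (limma adjusted p = 0.222).

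For TiO2 nanoparticles the question is the same. Of the 40 members 31 had lower means than control, with a median log2 fold change of -0.16, beside 8052 of the 15556 genes tested and a median of -0.01. One member, Cenpu, fell, or 2.5% of the members, against 6.4% of all genes called, 4.3% higher and 2.1% lower. In all 5 members had an unadjusted p under 0.05, a share of 12.5% against 23.3% of all genes. All 7 chromosome and kinetochore genes (median -0.23) and all 6 spindle, cytokinesis and exit genes (median -0.31) had lower means than control, as did 6 of 9 S to M genes, 7 of 10 replication genes and 5 of 8 G1 genes. The 3 comparisons with control share the same 4 control libraries, so they are not independent of one another, and control 2, the lowest library, is in each.

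Cenpu encodes a subunit of the CENP-A nucleosome-associated complex at the inner kinetochore, where it helps to recruit polo kinase. It lies on chromosome 8 at 46552028 to 46580007 on the + strand (GRCm38). It had 4.15, 9.15, 9.03 and 10.9 normalised counts in TiO2 libraries, against 16.6, 14.4, 20.2 and 18.7 in control. All 4 TiO2 libraries lay below all 4 controls. The group means were 8.32 ± 2.91 and 17.5 ± 2.51 (SD, n = 4 each), and the log2 fold change was -1.04 ± 0.29 (95% interval -1.64 to -0.45, limma adjusted p = 0.0308).

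The other exposures were on the same side of control for Cenpu. The paraquat libraries had 7.94, 8.12 and 11.9 normalised counts and the mixture libraries 11.9, 13.0, 9.36 and 13.4, so that all 11 libraries from exposed dams lay below the lowest control. The log2 fold change was -0.85 ± 0.31 after paraquat (limma adjusted p = 0.0802) and -0.52 ± 0.29 after the mixture (0.499), neither of which passed. The TiO2 call rests on 4 to 19 reads a library. It was lost without any of control 1, 3 and 4 or TiO2 1, 2 and 3, with adjusted p up to 0.0986, and the range over all libraries left out began at 0.0213. Primpol, a primase gene on the other strand that overlaps Cenpu by 1069 bases of exon, had 98.0 ± 17.5 in TiO2 and 109 ± 10.9 in control (log2 -0.16 ± 0.13, limma adjusted p = 0.494), and where strand was not used in counting, reads of the overlap cannot be told apart.

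**Figure D3:**
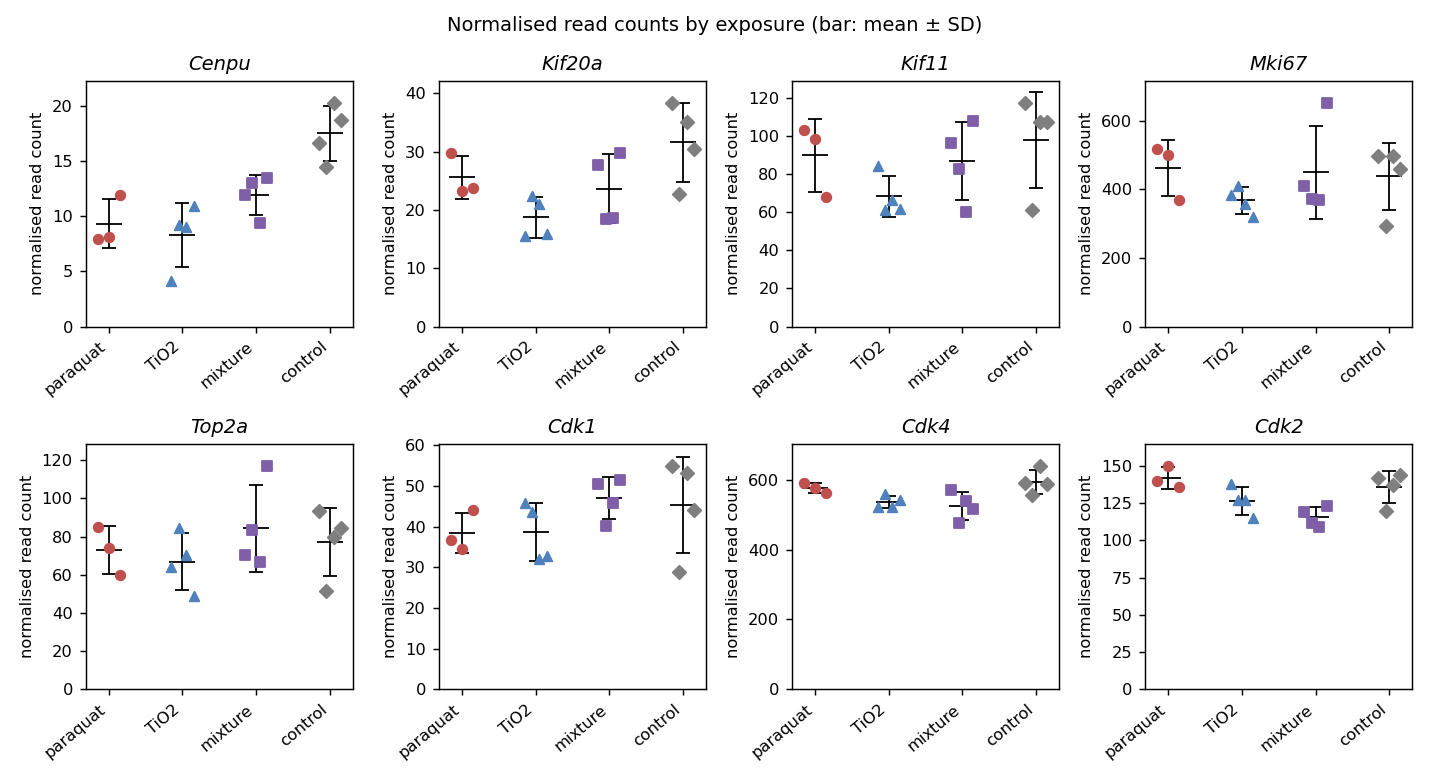
Normalised read counts of 8 members in each library (points) by exposure, with the mean and SD of each group as bars; y axes start at 0. The 11 libraries of the exposed groups lie below the lowest control for Cenpu, while for Mki67, Top2a and Cdk1 each exposed group overlaps control.

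Kif20a and Kif11, both mitotic kinesins, came next after TiO2. Kif20a, which carries the chromosomal passenger complex to the central spindle, had 15.6, 22.4, 21.1 and 15.9 normalised counts in TiO2 libraries, 29.8, 23.3 and 23.7 in paraquat and 27.7, 18.4, 18.7 and 29.8 in the mixture, against 38.3, 22.7, 35.1 and 30.5 in control. No TiO2 library reached the lowest control, control 2, although TiO2 2 came within 1 read of it. The log2 fold change was -0.72 ± 0.22 (limma adjusted p = 0.0527), and a neighbour on the other strand, Cdc23, overlaps it and had -0.17 ± 0.08 (adjusted p = 0.182). Kif11, the motor that pushes spindle poles apart, had 84.0, 61.0, 66.2 and 61.7 in TiO2 libraries, 103, 98.4 and 67.8 in paraquat and 96.1, 82.4, 60.3 and 108 in the mixture, against 117, 60.9, 107 and 107 in control. The other 3 controls lay above all TiO2 libraries and control 2 below them, and the difference of -0.49 ± 0.20 did not pass (limma adjusted p = 0.139).

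Leaving out control 2 raised the number of members called after TiO2. Without it, 4 of the 40 members were called by limma, all lower. Of the 15556 genes tested 8.98% were called in either direction, 764 higher and 633 lower. They were Kif11 (log2 -0.70 ± 0.18, adjusted p = 0.018), Kif20a (-0.86 ± 0.23, 0.0228), Cenpu (-1.13 ± 0.32, 0.0298) and Ccna2 (-0.41 ± 0.12, 0.0362). Ccna2, which drives S phase and entry into mitosis, had 115, 115, 124 and 115 in TiO2 libraries, against 150, 76.4, 159 and 159 in control. The median over the 40 members moved with single libraries. For TiO2 it was -0.31 without control 2 and -0.09 without control 3, the ends of its range over libraries left out. For paraquat the range ran from -0.22 without control 2 to 0.01 without paraquat 3, and for the mixture from -0.16 without control 2 to 0.05 without mixture 2, with a positive median also without control 3 or mixture 3. Ube2c, the ubiquitin carrier of the anaphase-promoting complex, and Birc5, survivin of the chromosomal passenger complex, had -0.39 ± 0.18 and -0.62 ± 0.30 with all libraries, and neither passed (limma adjusted p = 0.194 and 0.206).

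The third comparison concerns the mixture. None of the 40 members was called by limma, against 1.19% of all genes (1.12% higher and 0.0707% lower), and 2 had an unadjusted p under 0.05, against 12.2% of all genes. The edgeR and voom tests called 0 as well, and DESeq2 called 0 of the 33 to which it gave an adjusted p. Of the 40 members 23 had lower means than control, with a median log2 fold change of -0.05, beside -0.01 over all genes.

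Those 2 members were G1 kinases. Cdk4, the partner of cyclin D, had 571, 477, 539 and 517 normalised counts in mixture libraries, 591, 576 and 564 in paraquat and 522, 559, 524 and 543 in TiO2, against 590, 557, 640 and 589 in control. Only mixture 1 lay above the lowest control, and the log2 fold change was -0.18 ± 0.08 (95% interval -0.33 to -0.02, limma adjusted p = 0.318). Cdk2, the partner of cyclins E and A, had 119, 112, 109 and 123 in mixture libraries, 140, 150 and 136 in paraquat and 138, 127, 127 and 115 in TiO2, against 142, 120, 137 and 144 in control. Mixture 4 lay above control 2 and the other mixture libraries below all controls, and the difference of -0.22 ± 0.10 did not pass (limma adjusted p = 0.372). Kif20a followed in order of p after the mixture (log2 -0.41 ± 0.22, limma adjusted p = 0.484). Cdk4 overlaps Tspan31, a tetraspanin gene on the other strand, by 641 bases of exon, and Tspan31 had 0.08 ± 0.08 in the same comparison.

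**Figure D4:**
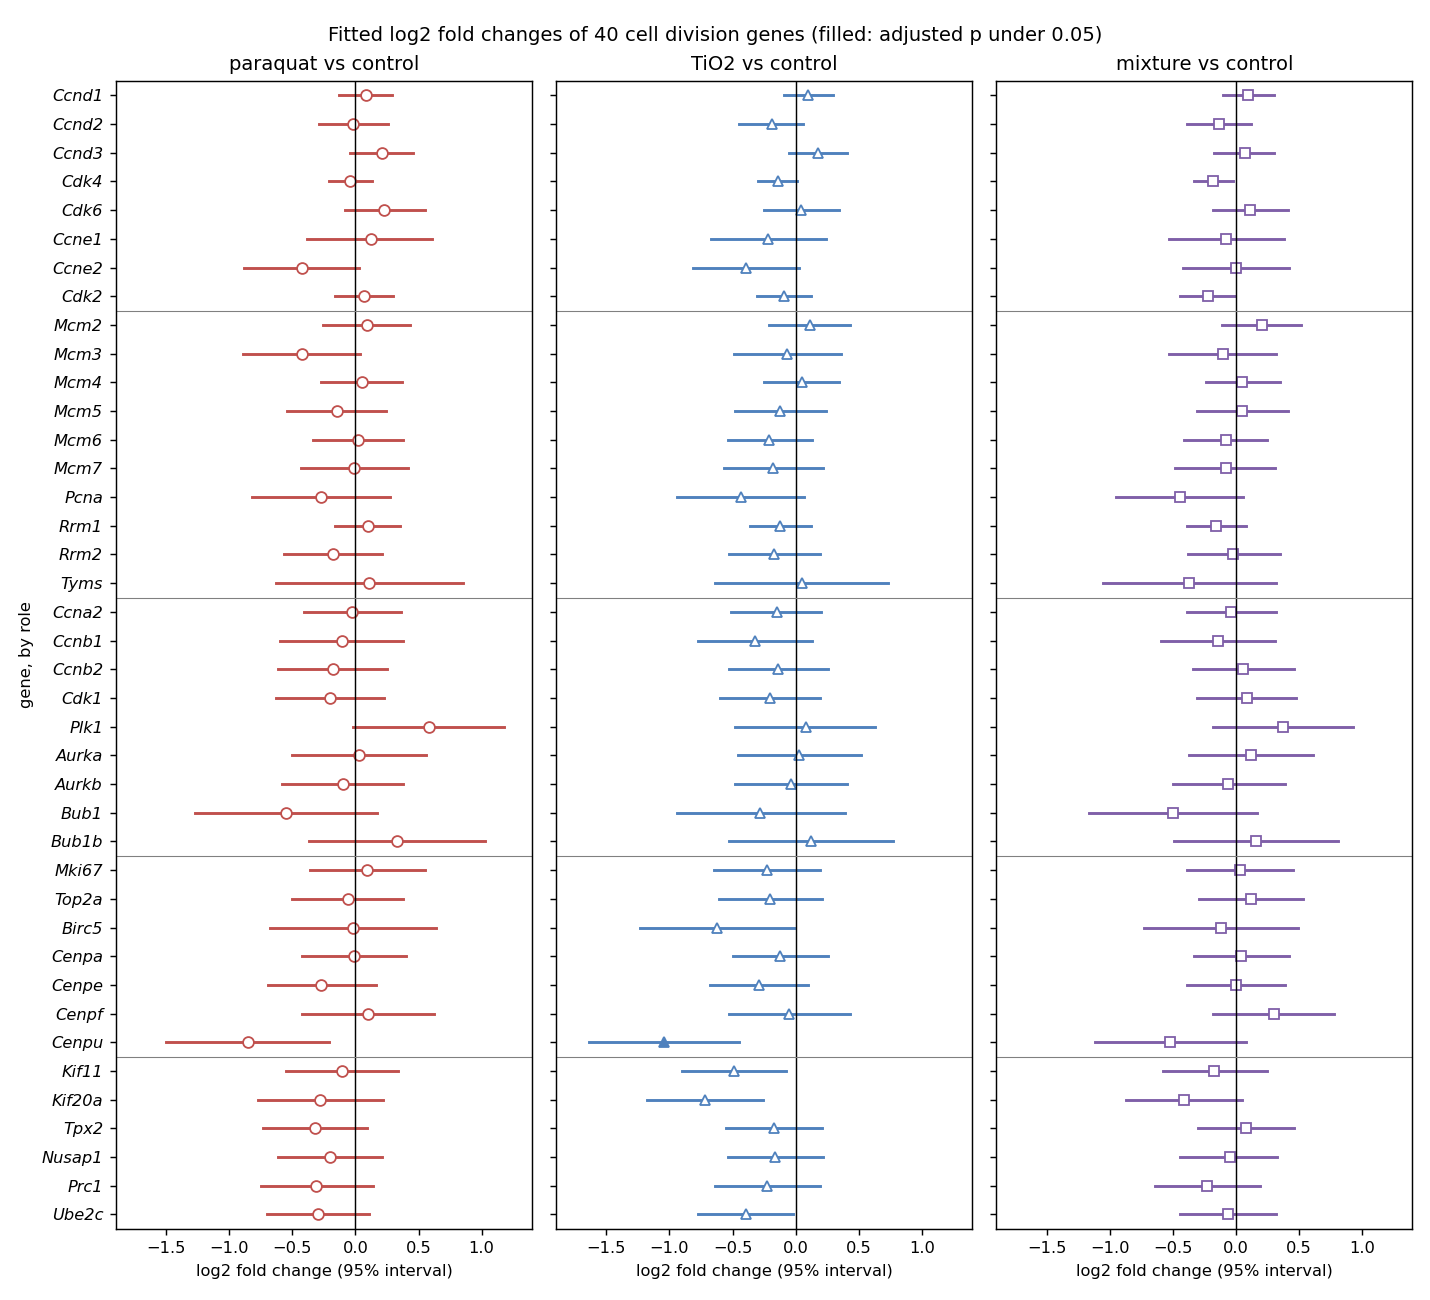
Log2 fold changes of the 40 genes against control, one panel for each exposure (paraquat, TiO2, mixture), with 95% intervals from limma; filled symbols passed an adjusted p under 0.05. The 1 filled symbol is Cenpu after TiO2 at -1.04, and the intervals of most genes include 0.

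Mki67, the standard marker of cycling cells, was not called in any comparison with all libraries. It had 516, 501 and 368 normalised counts in paraquat, 384, 410, 357 and 318 in TiO2, 409, 371, 368 and 650 in the mixture and 497, 294, 498 and 460 in control. Every exposed group overlapped control, with mixture 4 the highest and control 2 the lowest. The 95% intervals of the log2 fold change were -0.36 to 0.55 for paraquat, -0.65 to 0.19 for TiO2 and -0.39 to 0.45 for the mixture. A fall of 0.65 on the log2 scale after TiO2 is thus within the interval. The TiO2 difference of -0.23 became -0.41 without control 2 (limma adjusted p = 0.143), -0.15 without control 1 and -0.15 without control 3. Without both control 2 and mixture 4, a choice made after seeing the data, it was -0.41 with a limma adjusted p of 0.0229. In that fit 5 members were called, all lower (12.5%, against 8.99% of all genes in either direction). Of all genes 781 were called higher and 618 lower. The paraquat difference of 0.09 was -0.09 without control 2, and the mixture's of 0.03 was -0.15 without control 2 and -0.16 without mixture 4.

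Top2a, the topoisomerase that untangles chromosomes, had 85.3, 74.1 and 59.9 in paraquat, 64.3, 84.4, 70.2 and 48.7 in TiO2, 70.3, 83.5, 66.6 and 117 in the mixture and 93.2, 51.6, 79.8 and 84.5 in control. Cdk1, the kinase of mitotic entry, had 36.7, 34.5 and 44.1 in paraquat, 45.7, 43.7, 32.1 and 32.8 in TiO2, 50.5, 40.1, 45.8 and 51.4 in the mixture and 54.9, 28.9, 53.2 and 44.2 in control. For both genes control 2 or TiO2 4 was the lowest library and all groups overlapped. The log2 fold changes after TiO2 were -0.20 for Top2a and -0.20 for Cdk1, with standard errors of 0.20 and 0.19.

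Among the replication genes, Mcm2, a subunit of the replicative helicase, had 77.4, 66.0 and 73.1 in paraquat, 72.6, 79.3, 74.3 and 66.6 in TiO2, 76.2, 72.7, 79.1 and 85.3 in the mixture and 84.9, 46.4, 66.0 and 80.6 in control. The control group spanned nearly all exposed libraries, with control 2 the lowest of the 15. Pcna, the sliding clamp, had 15.9, 26.4 and 17.8 in paraquat, 16.6, 14.2, 23.1 and 16.9 in TiO2, 16.8, 19.5, 12.5 and 21.6 in the mixture and 23.8, 29.9, 17.0 and 26.5 in control. Control 2 was here the highest library, and no difference passed. Pcna has annotated pseudogenes and its count is low, so it is uncertain. The other helicase subunits, Mcm3 to Mcm7, had log2 fold changes of -0.42 to 0.05 after paraquat, -0.21 to 0.05 after TiO2 and -0.10 to 0.05 after the mixture, and none passed.

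No gene of nucleotide supply passed. Rrm1 and Rrm2, the subunits of ribonucleotide reductase, averaged 173 ± 18.6 and 81.1 ± 10.8 in paraquat, 148 ± 4.61 and 81.3 ± 8.88 in TiO2, 145 ± 18.0 and 92.2 ± 21.6 in the mixture and 162 ± 21.8 and 93.9 ± 24.9 in control (SD, n = 3 for paraquat and 4 otherwise). Tyms, which makes the thymidine nucleotide, averaged 13.2 ± 2.00 in the mixture and 18.8 ± 7.86 in control (SD, n = 4 each), a difference of -0.37 on the log2 scale that did not pass. It has an annotated pseudogene, as have Ccnb1, Ccnb2 and Ccnd3.

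Cyclins D1 and D2 stood next to Cdk4 in level per kilobase. Ccnd1 had 236, 254 and 270 in paraquat, 239, 271, 273 and 246 in TiO2, 275, 247, 234 and 269 in the mixture and 238, 205, 265 and 251 in control, with all groups overlapping. Ccnd2 had 1290, 1230 and 882 in paraquat, 1100, 1020, 1040 and 841 in TiO2, 1210, 961, 845 and 1160 in the mixture and 1240, 1050, 1040 and 1210 in control. Paraquat 3, TiO2 4 and mixture 3 were the low libraries for Ccnd2, whereas control 2 was not. Ccnd3, cyclin D3, and Cdk6, the other partner of the D cyclins, had log2 fold changes of 0.21 ± 0.12 and 0.23 ± 0.15 after paraquat, 0.18 ± 0.11 and 0.04 ± 0.14 after TiO2, and none of the 4 passed.

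The remaining S to M members were mostly low. The B cyclins, which activate Cdk1, averaged 36.7 ± 1.89 (Ccnb1) and 43.7 ± 11.9 (Ccnb2) in TiO2 and 47.9 ± 14.4 and 47.1 ± 8.18 in control (SD, n = 4 each). Aurka, the kinase of spindle poles, and Aurkb, the kinase of the passenger complex, averaged 24.3 ± 4.15 and 22.8 ± 3.09 in TiO2 and 24.2 ± 6.77 and 23.7 ± 5.65 in control (SD, n = 4 each), so that their means lay closer than their spread. Bub1, a kinase of the spindle checkpoint, ran between 9.22 and 39.4 over the 15 libraries, and its checkpoint partner Bub1b averaged 27.1 ± 15 in paraquat (SD, n = 3) and 18.5 ± 1.44 in control (n = 4). Cenpa, the centromeric histone, Cenpe, a kinetochore motor, and Cenpf had log2 fold changes of -0.12, -0.29 and -0.05 after TiO2. Tpx2, Nusap1 and Prc1, which bind spindle microtubules, had -0.17, -0.16 and -0.23, and none of these 6 passed.

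The exposures were compared with each other as well. Among the 40 members 0 were called by limma between the mixture and paraquat, where 0.00643% of all genes were, and 0 between the mixture and TiO2 or between paraquat and TiO2, where 0.0% of all genes were. One member had an unadjusted p under 0.05 in the first of these, against 14.4% of all genes, and 0 in the others, against 11.4% and 6.41%. It was Cdk2, whose mixture libraries (109 to 123) all lay below those of paraquat (136 to 150), and the log2 difference was -0.29 ± 0.11 (limma adjusted p = 0.25).

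The interaction asks whether the mixture departed from the sum of both single exposures on the log2 scale (mixture minus paraquat minus TiO2 plus control). One of 40 members was called (limma), against 11.8% of all genes, and 4 had an unadjusted p under 0.05, against 28.2%. Cenpu had an interaction of 1.38 ± 0.43 (adjusted p = 0.0376): the single log2 changes added to a larger fall than the mixture's own. This call was lost on leaving out any of 10 of the 15 libraries (adjusted p up to 0.0929). Ccne2, which averaged 62.6 ± 11.9 in the mixture, 46.2 ± 7.44 in paraquat, 49.4 ± 16.8 in TiO2 and 61.9 ± 3.17 in control, had an interaction of 0.81 ± 0.30 (adjusted p = 0.0761). Of the 40 members 31 had a positive interaction, with a median of 0.22, beside 0.00 over all genes. That median was 0.06 without paraquat 3, 0.07 without mixture 4 and 0.35 without control 2.

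Beyond the 40 members, 6 further lists of the pathway held 167 tested genes. After TiO2 8 of these passed and after paraquat 12, while none passed after the mixture. After TiO2 the CDK inhibitor list had 1 of 6 higher and none lower, the Rb, E2F and DREAM regulators 1 of 19 higher and 1 lower, p53 and its targets 1 of 17 higher, other mitosis genes 2 of 47 lower, other kinetochore genes 1 of 31 higher and other replication genes 1 of 47 higher. After paraquat the same lists had 1 higher, 1 lower, 3 higher, 2 lower, 1 higher and 1 lower, and 1 higher and 2 lower. The medians of these lists after TiO2 were 0.26, -0.06, 0.03, -0.15, -0.16 and -0.16, beside -0.01 over all genes. Shares of 4.79% after TiO2 and 7.19% after paraquat compare with 6.4% and 10.4% of all genes.

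E2f5 and Cks1b passed with any 1 library left out in at least 1 comparison. E2f5, a repressive E2F of the DREAM complex, averaged 226 ± 23.6 in paraquat (n = 3), 230 ± 16.9 in TiO2, 273 ± 13.7 in the mixture and 306 ± 26.9 in control (SD, n = 4 each). It fell by 0.41 ± 0.09 on the log2 scale after TiO2 (limma adjusted p = 0.00979) and by 0.44 ± 0.10 after paraquat (0.00842), the second call being lost without paraquat 1 (0.0628). Cks1b, a small subunit of cyclin-dependent kinases, averaged 30.7 ± 2.91 in paraquat (n = 3), 37.0 ± 5.06 in TiO2, 47.4 ± 7.45 in the mixture and 55.4 ± 8.45 in control (n = 4 each). It fell by 0.82 ± 0.18 after paraquat (adjusted p = 0.00684) and by 0.57 ± 0.17 after TiO2 (0.044), the second call being lost without any of 8 libraries (control 1, 3 and 4, paraquat 1, TiO2 2 and 3, mixture 3 and 4; up to 0.139).

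Cdkn1a, the p21 inhibitor of cyclin-dependent kinases, was higher in both single exposures. It averaged 130 ± 17.9 in paraquat (n = 3), 139 ± 14.5 in TiO2, 133 ± 18.3 in the mixture and 97.4 ± 5.41 in control (SD, n = 4 each). The log2 fold change was 0.50 ± 0.12 after TiO2 (limma adjusted p = 0.0121, 0.0554 without TiO2 3) and 0.41 ± 0.13 after paraquat (0.0434, lost without any of 10 libraries, up to 0.211). Trp53, which encodes p53, the factor that induces Cdkn1a, rose by 0.40 ± 0.11 after TiO2 (0.0294, lost without any of 5 libraries, up to 0.0878) and by 0.44 after paraquat (0.0223, lost without any of 4, up to 0.123). Pold2, a DNA polymerase delta subunit, rose by 0.75 ± 0.18 after TiO2 (0.0131, 0.0637 without TiO2 2) and by 0.68 after paraquat (0.0275, lost without control 2, paraquat 1 or paraquat 3, up to 0.151). The other genes that passed after TiO2 were E2f4, a second E2F of DREAM, and Mad1l1, a spindle checkpoint protein, both higher, and Smc2 of condensin, lower. These calls were lost without any of 6 libraries or more, with adjusted p up to 0.16. After paraquat they were Plk3 and Btg2, both p53 targets, and Mad1l1, all higher, and Cenpw, Melk, Orc2 and Prim1, all lower. Plk3 (0.0569) and Btg2 (0.0513) lost their calls without paraquat 3, and the others without any of 5 libraries or more, with adjusted p up to 0.236.

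Removing a trend with GC content ended the calls of Trp53, E2f4, Mad1l1 and Smc2 after TiO2 (limma adjusted p = 0.0608 to 0.115), and those of Cdkn1a, Pold2, Cenpw, Mad1l1, Melk, Orc2 and Prim1 after paraquat (0.0742 to 0.15). A fit of the compared groups alone ended those of Mad1l1, Smc2 and Cks1b after TiO2, and those of Cdkn1a, Pold2, Cenpw, Mad1l1, Melk, Orc2 and Trp53 after paraquat. The interaction was called for 14 of the 167 genes of these lists (8.38%, against 11.8% of all genes). Of these, E2f5 (0.69 ± 0.14, limma adjusted p = 0.00352) and Cks1b (1.17 ± 0.25, 0.00568) passed with any 1 library left out. The others were Rb1, Zwint, Smc2, Prim1, Orc4 and Mdm2, all positive, and Mad1l1, Gtse1, Pold2, Trp53, Plk3 and Btg2, all negative. Each of these others lost its call without at least 1 library, with adjusted p up to 0.123.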

How the data were processed

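RNA was isolated from striatum with a NucleoSpin kit, and libraries made with a Lexogen SENSE kit were sequenced on a NextSeq500, per the labels' protocols. Alignment tool and build, per the submitters' processing notes, are Bowtie2 2.3.2.2 and mm10, and DESeq2 2.1.8.3 is named beside them; which read counter and annotation served, and whether strand was used, is not given in the sources used here. The deposited table holds 15569 genes in 15 libraries, as a normalised signal whose values are whole reads divided by a size factor: 100% were whole multiples of each library's step within 0.001. In 4 libraries the step was within 1% of 1, so recovery of whole reads is claimed for 11. Groups and library numbers came from the sample titles.

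The plan assumed raw counts; because the values are normalised, the test was limma 3.58.1 (R 4.3.3) with trend and robust options on log2(value + 1), all 15 libraries and a mean per group. The filterByExpr function of edgeR 4.0.16 dropped 13 genes. P-values were Benjamini-Hochberg adjusted over 15556 genes and called under 0.05. Fold changes on this scale understate the change of low genes. The step was tested on simulated data. Alternatives were other pseudocounts, filters and scaling, edgeR, DESeq2 1.42.0 and voom on recovered reads, fits of the compared groups alone, a replicate block, removal of a GC trend (span 0.3), and leaving out each library; leaving out control 2 and mixture 4 together was chosen after seeing the data.

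Members and lists were chosen with earlier results of these data known. Values in every library are given for members called in any comparison, the 3 smallest p-values of each exposure and Mki67, Top2a, Cdk1, Pcna, Mcm2, Ccnd1 and Ccnd2; called genes of the pathway lists are named, and Ube2c, Birc5, Ccna2 and overlapping neighbours were added after their values were seen. All symbols matched GENCODE M21 (GRCm38, the assembly of mm10), which gave coordinates, exon lengths and overlaps. Promoters came from RefSeq.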

Additional observations from a re-analysis of the deposited data

Results flagged for a closer look

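Of 120 groups of 4 libraries examined (40 members in TiO2, mixture and control), 7 had a library whose gap to the next exceeded Dixon's critical share of the group's range; chance flags about 1 in 20 groups. Control 2 stood apart in 3 of these. It was low for Mcm6, a helicase subunit, at 84.6 normalised counts (the other controls 132 to 141), and for Ccna2 at 76.4 (150 to 159), and high for Bub1b at 20.6 (17.6 to 18.1). Mixture 4 was high for Mki67 at 650 (the other mixture libraries 368 to 409), and mixture 2 low for Birc5 at 13.0 (23.9 to 25.7). TiO2 2 was low for Mcm4, a helicase subunit, at 98.6 (116 to 119), and TiO2 3 high for Ccna2 at 124 (115 to 115). Bub1b in control and Ccna2 and Mcm4 in TiO2 varied no more than counting predicts. Their chi-square per degree of freedom was 0.108, 0.184 and 0.864, so these flags lie within counting error.

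Cenpu was the member whose response to the mixture differed from the sum of the single exposures, with an interaction of 1.38 on the log2 scale, as reported above.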

How the results depend on the processing

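For paraquat, the mixture and the 3 comparisons between exposures, 0 members were called under every alternative run, but DESeq2 gave no adjusted p to 3 members for paraquat, 7 for the mixture, 31 for the mixture against paraquat, 34 for the mixture against TiO2 and 1 for paraquat against TiO2. For TiO2 the count of 1 (Cenpu) became 0 with a mean filter of 50 normalised counts, which removes Cenpu, and 0 with DESeq2, which gave 19 members, Cenpu included, no adjusted p; leaving out single libraries gave 0 to 4. The interaction count of 1 became 0 under the mean filter, DESeq2 and GC removal, and leaving out single libraries gave 0 to 2. With control 2 and mixture 4 both left out TiO2 called 5 members, Ccna2, Cenpu, Kif11, Kif20a and Mki67, all lower. That is 12.5%, against 8.99% of all genes in either direction (781 genes higher and 618 lower). The interaction was called for 0 members in that fit. Apart from the mean filter, DESeq2 and single libraries left out, Cenpu after TiO2 had adjusted p of 0.0259 to 0.0492 by limma, edgeR or voom.

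No member was called in a comparison in which its sign changed. Removing the GC trend gave log2 fold changes of -0.03 for Plk1 and -0.02 for Mcm2 after TiO2, 0.04 for Kif11, 0.08 for Top2a, -0.09 for Mcm2 and -0.03 for Ccnd1 after paraquat, and 0.03 for Ccne2 after the mixture (0.02 with edgeR and 0.02 with DESeq2). DESeq2 gave 0.00 for Ccnd2 after paraquat. With both libraries left out the values were -0.09 (Mki67) and -0.09 (Mcm2) after paraquat, -0.07 (Mcm2) after TiO2, and -0.34 (Mki67), -0.23 (Top2a), -0.16 (Cdk1) and -0.01 (Mcm2) after the mixture. Over single libraries left out the ranges were -0.03 to 0.20 (Plk1) and -0.07 to 0.22 (Mcm2) after TiO2; -0.11 to 0.12 (Ccne2), -0.16 to 0.11 (Mki67), -0.06 to 0.22 (Top2a) and -0.11 to 0.19 (Cdk1) after the mixture; and -0.32 to 0.08 (Kif11), -0.09 to 0.25 (Mki67), -0.24 to 0.07 (Top2a), -0.09 to 0.20 (Mcm2) and -0.12 to 0.15 (Ccnd2) after paraquat. The causes were not tested.

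Replicate numbers did not pair the libraries: 8 of 21 same-number pairs had deviations correlated above 0.1 (-0.186 to 0.271), and 4 of 15 libraries correlated best with their own number. The replicate block left 1 member called for TiO2 and 0 for the interaction (Cenpu, adjusted p = 0.0554), with a median interaction of 0.133 over the members. Removing the GC trend gave members' medians of 0.132 for the interaction and -0.01 for the mixture. Over all genes the mixture count of 185 became 302 with DESeq2, 290 with the block, 80 with both libraries left out and 52 to 261 over single libraries; the paraquat count of 1617 became 665 to 2016 and the TiO2 count of 996 became 467 to 1397 over single libraries. Members with fewer than 30 normalised counts are limited by depth.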

Other observations

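Other dividing or vascular cells of the striatum were followed by their own markers, none at 0 in any library. Microglial markers (10 genes) summed to 5670 to 6710 in paraquat, 6270 to 6590 in TiO2, 5360 to 6080 in the mixture and 5690 to 6890 in control, and Tmem119, a microglial surface protein, was the 1 marker that passed after TiO2 (adjusted p up to 0.111, lost without control 1, control 3, TiO2 2 or TiO2 3). Endothelial markers summed to 2250 to 2920, 2490 to 2670, 2240 to 2680 and 2330 to 2730 in the same order, and pericyte markers to 2840 to 3850, 3260 to 3600, 2840 to 3420 and 3030 to 3590, with 0 of 16 called by limma in any exposure. Astrocyte markers summed to 50900 to 62600 in paraquat, 57400 to 61500 in TiO2, 50800 to 62600 in the mixture and 51100 to 57700 in control, and 2 of 10 passed after paraquat (Sox9 and Gfap) and 3 after TiO2 (Sox9, Aldoc and Gja1), all higher. Without control 1 all 3 of the TiO2 calls were lost, with adjusted p up to 0.094 over single libraries left out. Myelinating oligodendrocyte markers summed to 89300 to 103000, 55600 to 87700, 48100 to 83200 and 40500 to 60500, with 8 of 10 called higher after paraquat and 1 (Myrf) after TiO2. Of the 8, Myrf and Fa2h still passed whichever library was left out. The other 6 were each lost without paraquat 1 and likewise without paraquat 3, 3 of them without other libraries too (adjusted p up to 0.18), and Myrf after TiO2 was lost without control 1, TiO2 2 or TiO2 3 (up to 0.0683).

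The lists for neighbouring tissue varied between libraries. Cortical glutamatergic markers (8 genes) summed to 1590 to 5470 in paraquat, 1110 to 2680 in TiO2, 2410 to 4310 in the mixture and 733 to 1510 in control, and Rasgrf2, Cux2 and Nrn1 were called higher after paraquat, Rasgrf2 not without paraquat 3 (0.0585) and Nrn1 not without any of 12 libraries (up to 0.114). Ependymal markers (5 of 6 in the table) summed to 123 to 238, 84.5 to 130, 125 to 173 and 81.5 to 175, with control 2 the lowest library. Choroid plexus markers (3 of 6) summed to 129 to 300, 136 to 160, 112 to 215 and 125 to 199, and erythroid markers (3 of 5) to 1300 to 1520, 1440 to 1780, 1380 to 2040 and 1330 to 2290, with 0 called by limma in any exposure for these 3 lists. Of 10 medium spiny neuron markers Tac1 was called lower after both paraquat and TiO2, whichever library was left out, and Bcl11b and Penk were called lower after paraquat, each lost without any of 10 libraries or more (up to 0.192). These markers were named after their values were seen. The part of these cells in the members' values was not tested.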
